A study of Mus musculus with 22 samples.

Results

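The genes described here are the nuclear genes of the mitochondrial respiratory chain, taken as every gene name of the deposited expression table that begins like a complex I subunit (Nduf followed by a, b, c, s or v and a number), is Sdha, Sdhb, Sdhc or Sdhd, or begins with Uqcr, with Cox4 to Cox8 and a letter, or with Atp5. The rule found 82 of 34378 names. Of these, 35 are subunits of complex I, 4 of complex II, 7 of complex III, 18 of complex IV (Ndufa4, named for complex I, is counted here) and 14 of complex V. The remaining 4 names share the prefix but name no subunit: Cox4nb (now Emc8), Atp5s (now Dmac2l), Atp5sl (now Dmac2) and Ndufa4l2. A level could be measured for 81 names; Cox7b2, the testis form of subunit 7b, was not well above background on any of the 22 arrays. The names Ndufab1, Usmg5 and Atpif1 fall outside the rule and are not counted.

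Total RNA of mouse cardiac fibroblast (CF) cultures was hybridised to Agilent 1-colour arrays, 1 array per sample. All cells, those of day 0 and lacZ included, came from CD1 mice carrying aMHC-GFP, in which the Myh6 promoter (Myh6 is a heart muscle myosin) drives a fluorescent protein. No age is stated for the mice in the labels. Fibroblasts without virus were taken at day 0, and cells given a lacZ retrovirus (the bacterial beta-galactosidase gene, the control) or the MGT retrovirus (Mef2c, Gata4 and Tbx5 on a single transcript, cardiac transcription factors that turn some fibroblasts into induced cardiomyocytes) at days 3, 5, 7, 10 and 14. Each of the 11 groups had 2 arrays, and whether these came from separate cultures is not stated, so the p-values measure only the spread between arrays, which may be technical.

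The respiratory chain passes electrons from NADH (complex I) and succinate (complex II) through complex III to complex IV, cytochrome c oxidase, which reduces oxygen. The protons pumped on the way drive complex V, the ATP synthase. Heart and skeletal muscle replace some complex IV subunits of other tissues by muscle forms: Cox6a2, Cox7a1 and Cox8b stand in for Cox6a1, Cox7a2 and Cox8a. Cox4i2 is a form of subunit 4 found mainly in lung and induced by low oxygen, and Cox6b2 is known as the testis form of subunit 6b.

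Levels are log2 of the background-subtracted intensity relative to the 75th percentile of the same array, and a difference was called when its Benjamini-Hochberg adjusted p in limma was under 0.05. Each array had 59305 non-control spots, of which 48.4% to 71.0% were well above background, and the 75th percentile of the signal lay between 1285 and 2124 on 21 arrays. It was 729 on the remaining array, day 14 lacZ replicate 2. The arrays lay on 4 slides: days 3 and 5 on the first, days 7 and 10 on the second, day 0 and day 14 lacZ on the third and day 14 MGT on the fourth. Differences between MGT and lacZ at days 3 to 10 are thus within slides, while at day 14 slide and vector cannot be told apart. The median absolute difference between the 2 arrays of a group was 0.027 (day 5 lacZ) to 0.15 (day 10 lacZ) over the 81 names.

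The sequences before the start of the muscle forms that rose and of their counterparts are shown because the pairs behaved unlike each other in the same cells. The 250 bases up to the annotated start of each gene, 5′ to 3′ on the gene's strand, are from RefSeq (build GRCm38.p6) at chr7:30183921-30184170 (plus strand), chr7:140900447-140900696, chr9:79759854-79760103 and chr19:7217617-7217866 (minus strand). Capitals mark matches, on either strand, to the motifs searched. These were the MEF2 site and the Nrf1 site, GATAA as the core of sites for GATA factors, and AGGTGT as the core of T-box sites. The search also covered an E-box with the letters CAGCTG, and a TATA box with the letters TATAAA. Estrogen-related receptors were represented by the letters AAGGTCA, and ETS factors such as Gabpa by the letters CCGGAAG.
Cox7a1: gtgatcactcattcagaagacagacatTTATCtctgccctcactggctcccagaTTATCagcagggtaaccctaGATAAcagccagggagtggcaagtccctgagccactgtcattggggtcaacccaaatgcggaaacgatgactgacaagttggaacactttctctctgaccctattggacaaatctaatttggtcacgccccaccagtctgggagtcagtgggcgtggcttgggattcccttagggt
Cox8b: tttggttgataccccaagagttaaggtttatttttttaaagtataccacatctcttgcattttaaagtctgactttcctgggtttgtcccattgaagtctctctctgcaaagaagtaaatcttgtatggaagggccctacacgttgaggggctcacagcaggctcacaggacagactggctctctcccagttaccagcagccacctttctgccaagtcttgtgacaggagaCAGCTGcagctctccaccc
Cox7a2: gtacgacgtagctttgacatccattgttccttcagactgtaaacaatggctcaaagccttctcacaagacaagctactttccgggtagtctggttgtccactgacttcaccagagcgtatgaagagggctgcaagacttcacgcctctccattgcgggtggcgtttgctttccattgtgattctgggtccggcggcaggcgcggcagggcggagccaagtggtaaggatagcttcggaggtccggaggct
Cox8a: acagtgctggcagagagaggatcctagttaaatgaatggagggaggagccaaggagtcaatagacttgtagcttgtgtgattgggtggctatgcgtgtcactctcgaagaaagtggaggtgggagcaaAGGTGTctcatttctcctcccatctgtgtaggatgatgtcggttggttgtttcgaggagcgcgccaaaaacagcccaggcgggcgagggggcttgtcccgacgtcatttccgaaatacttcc
The Cox7a1 sequence held 3 GATAA matches, at 223 and 196 bases before the start on the opposite strand (read there as TTATC) and at 176 bases on the gene's strand. Cox8b held 1 CAGCTG, which reads the same on both strands, 19 bases before the start. Cox8a held 1 AGGTGT at 122 bases, and Cox7a2 held no match to these letters. None of the marked matches overlapped another motif. Over the 32851 promoters in the table, GATAA was found in 22.6%, CAGCTG in 13% and AGGTGT in 11.8%. For 67 of the 82 names a promoter was matched, and of these 13 held GATAA, 6 CAGCTG and 7 AGGTGT. The letters CCGGAAG were found in 11 of the 67 (16.4%) and in 6.91% of all promoters, the Nrf1 site in 4 (5.97%) and 0.782%, AAGGTCA in 5 (7.46%) and 4.08%, TATAAA in 6 (8.96%) and 12.4%, and the MEF2 site in 0 of the 67 and 2.92%. The median share of G and C was 56.4% in the 67 promoters and 52.4% in all promoters, and the shares of motifs were not adjusted for it. These are matches of letters, not measured binding.

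Among the muscle forms of complex IV, Cox8b and Cox7a1 rose in MGT cells on each of the 5 days and by more at day 14 than at day 3, while Cox6a2 was not called over the days. Cox8b is subunit 8 of heart and skeletal muscle, and its probe lies at chr7:148084852-148084911 (mm9). Its level was -2.30 and -2.48 on the day 0 arrays. In lacZ cells it was -3.81 and -3.80 at day 3, -4.31 and -4.19 at day 5, -2.66 and -2.67 at day 7, -4.01 and -4.27 at day 10, and -3.81 and -3.20 at day 14. In MGT cells it was -2.90 and -3.10, -3.13 and -3.02, -1.11 and -1.04, -0.61 and -0.80, and 0.80 and 0.57 on the same days. The MGT arrays were above the lacZ arrays of their day throughout, but until day 5 they were below the day 0 arrays. The log2 difference grew from 0.81 (SE 0.16, limma adjusted p = 0.00203) at day 3 to 4.19 (SE 0.16, limma adjusted p = 3.31e-10) at day 14. Averaged over days it was 2.24 (SE 0.073, a 4.71-fold difference, limma adjusted p = 1.06e-11), and it was called in each of the 31 alternative settings run, from 0.99 over the days of slide 1 to 2.51 over those of slide 2. Over days 3 to 10, all within slides, the average was 1.75 (limma adjusted p = 5.39e-10).

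Cox7a1, the muscle form of subunit 7a, was measured at chr7:30970337-30970948 (mm9) by a probe that spans an intron. Its level was -1.80 and -1.95 at day 0. In lacZ cells it was -1.29 and -1.31 at day 3, -1.20 and -1.36 at day 5, -1.57 and -1.42 at day 7, -0.85 and -0.36 at day 10, and 0.62 and 0.91 at day 14. In MGT cells it was -0.28 and -0.39, -0.21 and -0.15, 0.28 and 0.46, 1.58 and 1.29, and 3.07 and 3.06. Unlike Cox8b, Cox7a1 was above its day 0 level in the cells of both vectors, and the groups of a day did not overlap. The log2 difference was 0.96 (SE 0.15) at day 3 and 2.30 (SE 0.15) at day 14, and 1.65 on average (SE 0.067, limma adjusted p = 9.97e-11). In lacZ cells alone the level at day 14 was higher than at day 0 by 2.64 (limma adjusted p = 3.75e-09).

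Cox6a2, the muscle form of subunit 6a (probe at chr7:135349160-135349219, mm9), moved with the day in the cells of both vectors. Its lacZ levels were 0.26 and 0.26 at day 3, -0.41 and -0.53 at day 5, -0.47 and -0.31 at day 7, 0.41 and 0.21 at day 10, and 0.85 and 0.70 at day 14. Its MGT levels were 0.67 and 0.54, -0.72 and -0.62, -0.30 and 0.02, 0.31 and 0.21, and 0.89 and 0.77. The groups overlapped at days 10 and 14. The difference was 0.35 at day 3, where it was called, and 0.08 averaged over days (SE 0.05, limma adjusted p = 0.171). Relative to bright probes (the scaling described with the counts below) the average was 0.16 and was called (limma adjusted p = 0.00788). It was also called when the first day 7 MGT array was left out, at 0.11 (limma adjusted p = 0.0478).

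The counterparts of these forms had small average differences on the same arrays. Cox6a1 differed by 0.044 on average (SE 0.052) and Cox8a by 0.092 (SE 0.04), neither called. Both depended on the processing: Cox6a1 was called in 4 of 31 alternative settings, with values up to 0.28, and Cox8a in 11, with values up to 0.40. A second Cox8a probe gave 0.17 (limma adjusted p = 0.00212). Cox7a2 rose by 0.19 (SE 0.047, limma adjusted p = 0.00283). The change of a form relative to its counterpart on the same array does not depend on how arrays are scaled to a common percentile, and it was tested for 4 pairs over the 10 MGT and 10 lacZ arrays by an exact two-sided permutation test within days. Cox8b gained 2.15 log2 units on Cox8a and Cox7a1 gained 1.46 on Cox7a2, each in the same direction on 5 of 5 days, with SD over days of 1.63 and 0.60. Cox4i2 lost against Cox4i1, with a change of -0.51 (SD 0.24) that was negative on 5 of 5 days. For each of these the permutation p was 0.000257, the smallest the design allows, and 0.000343 after Benjamini-Hochberg adjustment over the 4 pairs. The change of Cox6a2 relative to Cox6a1 was 0.038 (SD over days 0.29, from -0.41 to 0.35, exact permutation p = 0.731). With normexp background correction and quantile normalization it was -0.26 (exact permutation p = 0.0198), so its direction depended on the processing. Markers of muscle cells moved on the same arrays. All 8 cardiomyocyte markers and 5 of 6 skeletal muscle markers rose in MGT cells, when 23.3% of all genes did. Some markers of both lists were not well above background on every array, as given with the other markers below. The summed level of the skeletal muscle markers, in multiples of the 75th percentile, was 11.9 to 37.5 on the lacZ arrays and 47.6 to 90.9 on the MGT arrays. Their part in the rise of Cox8b and Cox7a1 was not tested.

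**Figure D1:**
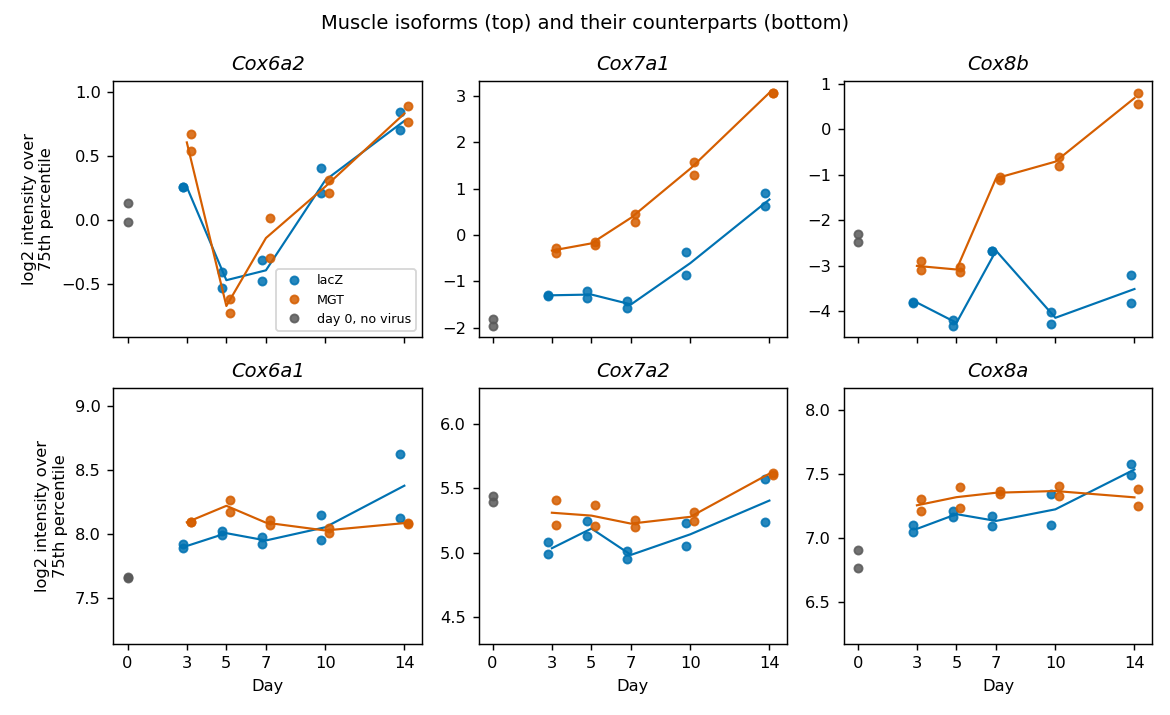
Level of 3 muscle forms of complex IV subunits (top) and of their counterparts (bottom) on each array (points; log2 intensity over the array's 75th percentile) against the day, with lines through the means of the 2 arrays of a group. MGT points lie above lacZ points on each day for Cox7a1 and Cox8b, while for Cox6a2 they overlap at days 10 and 14; vertical scales differ between panels.

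Among the other forms of complex IV, Cox6b2 rose and Cox4i2 fell. The level of Cox6b2 was -2.43 and -2.47 at day 0. In lacZ cells it was -1.36 and -1.31 at day 3 and 0.36 and -0.20 at day 14, and in MGT cells -0.27 and -0.32 at day 3 and 0.94 and 1.02 at day 14. It thus rose with time in the cells of both vectors, and the difference between them was similar over the days, from 0.90 at day 14 to 1.40 at day 5 (mean 1.06, SE 0.055, limma adjusted p = 1.38e-09). Its counterpart Cox6b1 rose by 0.37 (SE 0.049, limma adjusted p = 2.05e-05). Cox4i2 was at -1.45 and -1.46 at day 0, between -0.89 and -0.35 on the 10 lacZ arrays (median -0.69) and between -1.88 and -0.71 on the 10 MGT arrays (median -1.13). It fell by 0.52 on average (SE 0.039, limma adjusted p = 7.58e-08), was called from day 5 on, and reached -0.98 at day 14. Cox4i1 was at -0.001 (SE 0.035) on average and was not called.

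Ndufa4l2, which encodes a protein related to the complex IV subunit Ndufa4 and is known as a target of hypoxia signalling, had the widest fall among the 81 names. Its level was -1.77 and -1.94 at day 0. In lacZ cells it was -0.52 and -0.40 at day 3, -0.56 and -0.62 at day 5, 0.92 and 1.27 at day 7, 0.44 and 1.59 at day 10, and 3.02 and 3.11 at day 14. In MGT cells it was -0.50 and -0.40, -2.61 and -2.68, -1.07 and -0.52, -0.56 and -0.58, and 1.70 and 2.12. The groups overlapped at day 3 and not from day 5 on; at day 5 MGT cells were lower by 2.06 (SE 0.28, limma adjusted p = 6.66e-05). By day 14 both stood above day 0, lacZ by 4.92 and MGT by 3.76. Ndufa4 itself rose by 0.12 (SE 0.035, limma adjusted p = 0.00943).

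**Figure D2:**
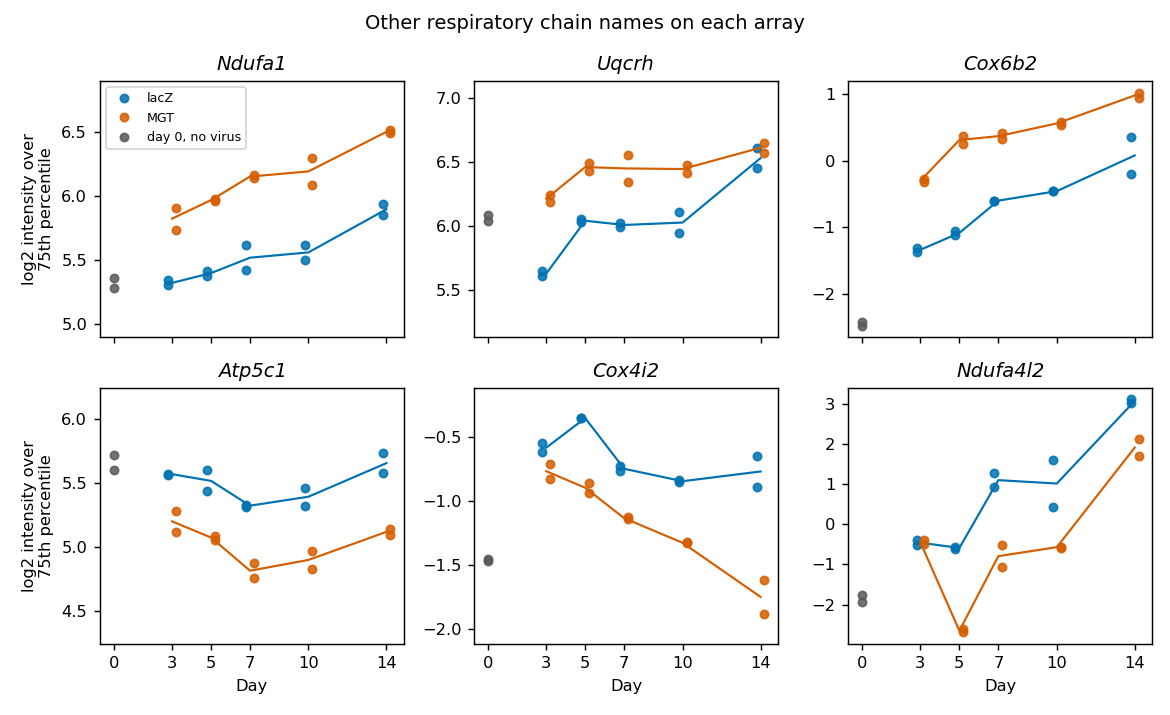
Level of 6 further names on each array (points; log2 intensity over the array's 75th percentile) against the day, with lines through the group means. Ndufa1, Cox6b2 and, until day 10, Uqcrh are higher in MGT cells and Atp5c1 (the probe that spans an intron), Cox4i2 and, from day 5, Ndufa4l2 are lower; vertical scales differ between panels.

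The other subunits differed by less. Averaged over days, 29 of the 81 names were called higher and 10 lower in MGT cells, while 23.3% of the 18111 genes tested were called higher and 40.6% lower (63.9% in either direction). The median difference was 0.05 for the 81 names and -0.086 for all genes. Without the 5 muscle and tissue forms the 72 subunits had 24 higher and 7 lower, with differences from -0.47 to 0.59. This count depended on how arrays were made comparable. When each array was scaled to its probes well above background on every array, 58 were called higher and 6 lower (medians 0.13 for the names and -0.005 for all genes), and the share of all calls that were higher moved from 36.4% to 49.7%. With normexp and quantile normalization there were 58 higher and 4 lower (43.5% of all calls higher), and 53 higher and 4 lower with the deposited values (42.0%). The medians of the names and of all genes were 0.20 and -0.032 with normexp and 0.19 and -0.044 with the deposited values, so the gap between them was wider there than in the first fit or relative to bright probes. Within slides, an average over days 3 to 10 gave 31 higher and 8 lower, against 22% and 36.9% of all genes (58.9% in either direction). The days of slide 1 gave 19 and 4 (45.8% of all genes called, 18.3% higher and 27.5% lower) and those of slide 2 gave 30 and 7 (50.2%, 18.9% and 31.2%).

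**Figure D3:**
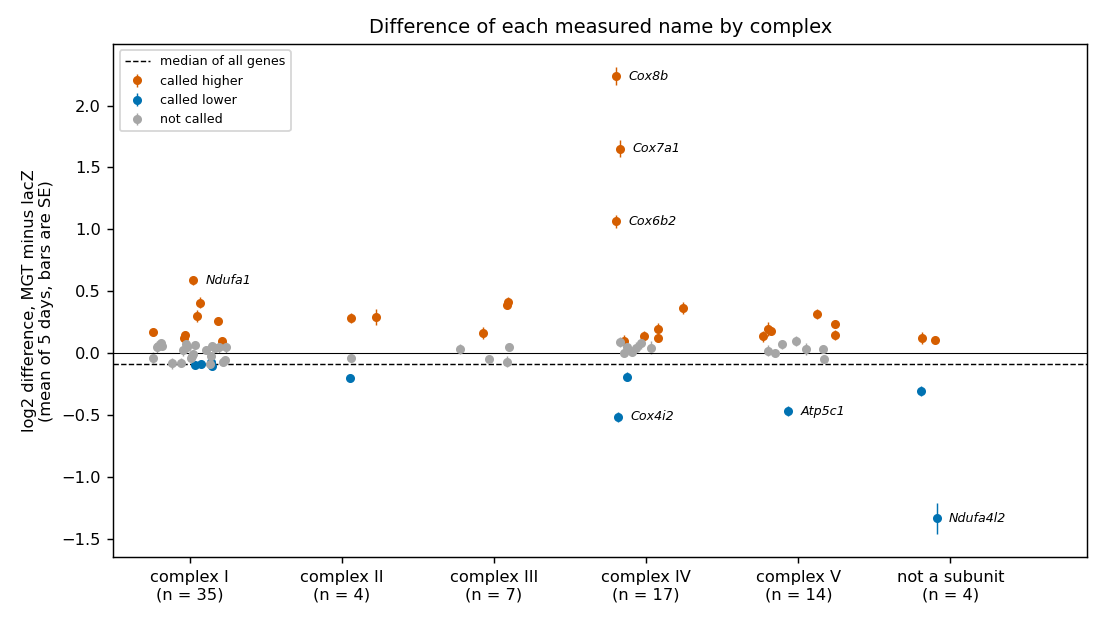
Log2 difference between MGT and lacZ cells, averaged over 5 days, for each of the 81 measured names by complex (points; bars are SE from limma), with the median of all genes as a dashed line. Most points lie within 0.5 of 0, and the named points are those beyond 0.45 in either direction; the other 3 scalings raise both the median of the points and the dashed line.

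In complex I, 8 of 35 subunits rose and 4 fell (median 0.045). The 22.9% that rose is close to the 23.3% of all genes called higher, and the 11.4% that fell is below the 40.6% called lower. Relative to bright probes, with normexp and with the deposited values, 22, 23 and 20 of the 35 were called higher, when 30.5%, 25.4% and 24.4% of all genes were. The largest rise was that of Ndufa1, a small accessory subunit of the membrane arm encoded on the X chromosome. Its level was 5.36 and 5.28 at day 0, between 5.30 and 5.94 in lacZ cells (median 5.46) and between 5.74 and 6.51 in MGT cells (median 6.11), and the groups did not overlap on any day. The difference was between 0.50 and 0.63 on each day and 0.59 on average (SE 0.038, limma adjusted p = 1.34e-08). The accessory subunit Ndufa11 rose by 0.30 (SE 0.047). The core subunits Ndufs1, Ndufs3, Ndufs7, Ndufs8, Ndufv1 and Ndufv2 lay between -0.093 and 0.080, and of these Ndufv2 was called, at -0.093. The falls were all small: Ndufa8 fell by 0.11, Ndufv2 by 0.093 and Ndufc2 by 0.076, and the sign of Ndufc2 was reversed (0.098, 0.067 and 0.005) under the 3 other scalings. Over all names, 6 of 81, among them Ndufa1, Uqcr, Cox6b2, Cox7a1 and Cox8b, were called higher on every one of the 5 days, as were 6.48% of all genes, and Atp5c1 alone was called lower on every day, as were 7.54% of all genes.

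In complex II, succinate dehydrogenase, both subunits that anchor the enzyme in the membrane rose and 1 of the catalytic subunits fell. Of all genes 23.3% were called higher and 40.6% lower, so calls in 4 subunits say little about the complex as a whole. The anchors Sdhc and Sdhd rose by 0.28 (SE 0.039, limma adjusted p = 3.09e-05) and 0.29 (SE 0.064, limma adjusted p = 0.00143). Sdhd was at 3.65 and 4.32 on the day 5 lacZ arrays and between 4.39 and 4.53 on the other 8, so its largest daily difference, 0.60 at day 5, leans on the first of these arrays. The flavoprotein Sdha differed by -0.039 (SE 0.024) and was not called. The iron-sulfur subunit Sdhb fell by 0.20 (SE 0.033, limma adjusted p = 1.37e-04), and its largest difference by this probe was at day 14 (-0.42). That call was lost with normexp and quantile normalization (-0.072, limma adjusted p = 0.11) and with the deposited table (-0.062, limma adjusted p = 0.208), where Sdha was at 0.089 and 0.066. A second Sdhb probe gave -0.09 on average (limma adjusted p = 0.0282), with its largest difference at day 5 (-0.21) and -0.018 at day 14, so the probes disagreed on size and day.

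In complex III, 3 of 7 subunits rose (23.3% of all genes did) and the other 4 were not called. Uqcr (now Uqcr11) rose by 0.41 (SE 0.043, limma adjusted p = 1.66e-06) and the hinge protein Uqcrh by 0.39 (SE 0.035, limma adjusted p = 4.51e-07), both small accessory subunits, and Uqcrb by 0.16 (SE 0.049). Other Uqcrb probes gave 0.13 (limma adjusted p = 0.0777) and 0.068 (limma adjusted p = 0.137), so the call of Uqcrb rests on its brightest probe. Uqcrh was higher by 0.42 to 0.58 at days 3 to 10 and by 0.081 at day 14, where it was not called. The Rieske protein Uqcrfs1 (0.033) and the core proteins Uqcrc1 (-0.052) and Uqcrc2 (0.049) were not called. The count depended on the scaling. Relative to bright probes, with normexp and with the deposited values, 5, 6 and 6 of the 7 were called higher, when 30.5%, 25.4% and 24.4% of all genes were.

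In complex IV, 8 of 17 subunits rose (47.1%, against 23.3% of all genes) and 2 fell. Of the 12 that are not muscle or tissue forms, 5 rose, by 0.10 (Cox6c) to 0.37 (Cox6b1). Relative to bright probes, with normexp and with the deposited values, 15, 14 and 13 of the 17 were called higher, when 30.5%, 25.4% and 24.4% of all genes were. Cox7a2l, which takes part in joining complexes III and IV into supercomplexes, fell by 0.19 (SE 0.039, limma adjusted p = 8.03e-04). Its difference was 0.18 at day 3 and -0.51 at day 14. In lacZ cells it had risen by 1.10 by day 3 and by 1.46 by day 14.

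In complex V, 6 of 14 subunits rose (42.9%, against 23.3% of all genes) and 1 was called lower. Atp5k (subunit e), Atp5j (coupling factor 6) and Atp5a1 (the alpha subunit) rose by 0.31 (SE 0.042), 0.24 (SE 0.033) and 0.17 (SE 0.027), whereas the beta subunit Atp5b was not called. Relative to bright probes, with normexp and with the deposited values, 12, 12 and 11 of the 14 were called higher, when 30.5%, 25.4% and 24.4% of all genes were. Atp5c1, the gamma subunit that forms the rotor's shaft, was the name called lower. Its level was 5.72 and 5.60 at day 0, between 5.32 and 5.73 in lacZ cells (median 5.51) and between 4.75 and 5.28 in MGT cells (median 5.07), so the groups did not overlap. It was lower by 0.47 on average (SE 0.039, limma adjusted p = 1.64e-07). That value comes from a probe that spans an intron (chr2:9977788-9980644, mm9). A second probe, at chr2:9977665-9977724, gave -0.052 (limma adjusted p = 0.359) and between -0.15 and 0.031 on single days. The messenger RNA of Atp5c1 is known to be spliced differently in muscle; which transcripts each probe reads was not tested. In the deposited table the difference was -0.16.

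Day by day, the count of names called higher and lower was 17 and 1 at day 3, 13 and 4 at day 5, 18 and 5 at day 7, 11 and 8 at day 10, and 10 and 8 at day 14. Over all genes 30.4%, 38%, 37.2%, 39.3% and 47.5% were called in either direction on these days, of which called higher were 12.3%, 16.2%, 14.9%, 15.2% and 18.3% of all genes and called lower 18%, 21.8%, 22.4%, 24.1% and 29.3%. The median difference of the names was 0.092, 0.019, 0.13, 0.073 and -0.028. At day 14, 27 were called higher and 6 lower relative to bright probes, 51 and 4 with normexp and quantile normalization, and 50 and 3 in the deposited table, where the median was 0.31. The median of all genes at day 14 moved from -0.093 to 0.024, 0.001 and -0.008 under these settings, and the share of calls that were higher from 38.4% to 53.1%, 50.3% and 49.5%. With only the 4 arrays of the day in the fit, 5 names were called at day 10 and 5 at day 14, when 18.2% and 15% of all genes were called.

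**Figure D4:**
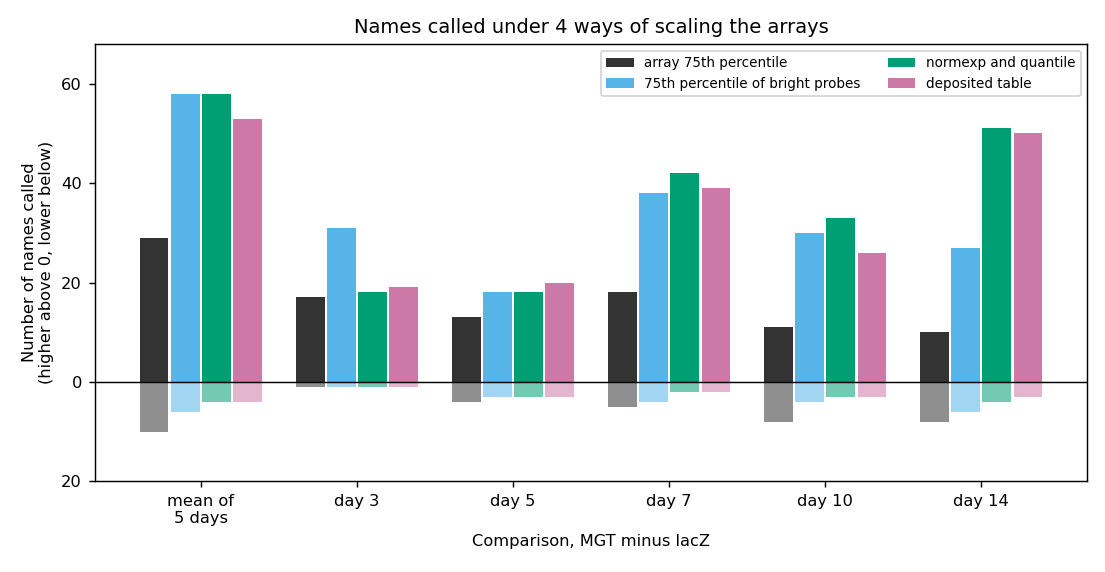
Number of the 81 names called higher (bars above 0) and lower (bars below 0, paler) in MGT than in lacZ cells, averaged over days and on each day, under 4 ways of making the arrays comparable. The bars above 0 range from 10 to 51 at day 14 and from 17 to 31 at day 3.

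The change of the difference from day 3 to day 14 was called higher for Cox8b (3.39, SE 0.23, limma adjusted p = 6e-07) and Cox7a1 (1.34, SE 0.21, limma adjusted p = 5.43e-04) and lower for 12 names, against 27.5% of all genes called in either direction (12.3% higher, 15.2% lower). The largest of the falls were those of Ndufa4l2 (-1.17), Cox4i2 (-0.80) and Cox7a2l (-0.69). With normexp and quantile normalization 14 were called higher and 4 lower, 10 and 5 with the deposited values, and relative to bright probes 3 and 8. Over all genes 25.6%, 22.8% and 28% were called under these settings. Without the first day 14 lacZ array the median was -0.16 for the names and -0.028 for all genes (-0.115 and -0.03 with it). Since day 14 MGT lies on a slide of its own, a change over the earlier days was also taken within slides. It is the mean of days 7 and 10 against the mean of days 3 and 5, and a change that came only at day 14 cannot appear in it. There Cox8b gained 1.52 (limma adjusted p = 3.52e-05) and Cox7a1 0.92 (limma adjusted p = 9.74e-04), whereas Cox4i2 was at -0.07 (limma adjusted p = 0.688). In all 4 names were higher and 2 lower, against 15.2% of all genes called (7.36% higher, 7.87% lower).

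**Figure D5:**
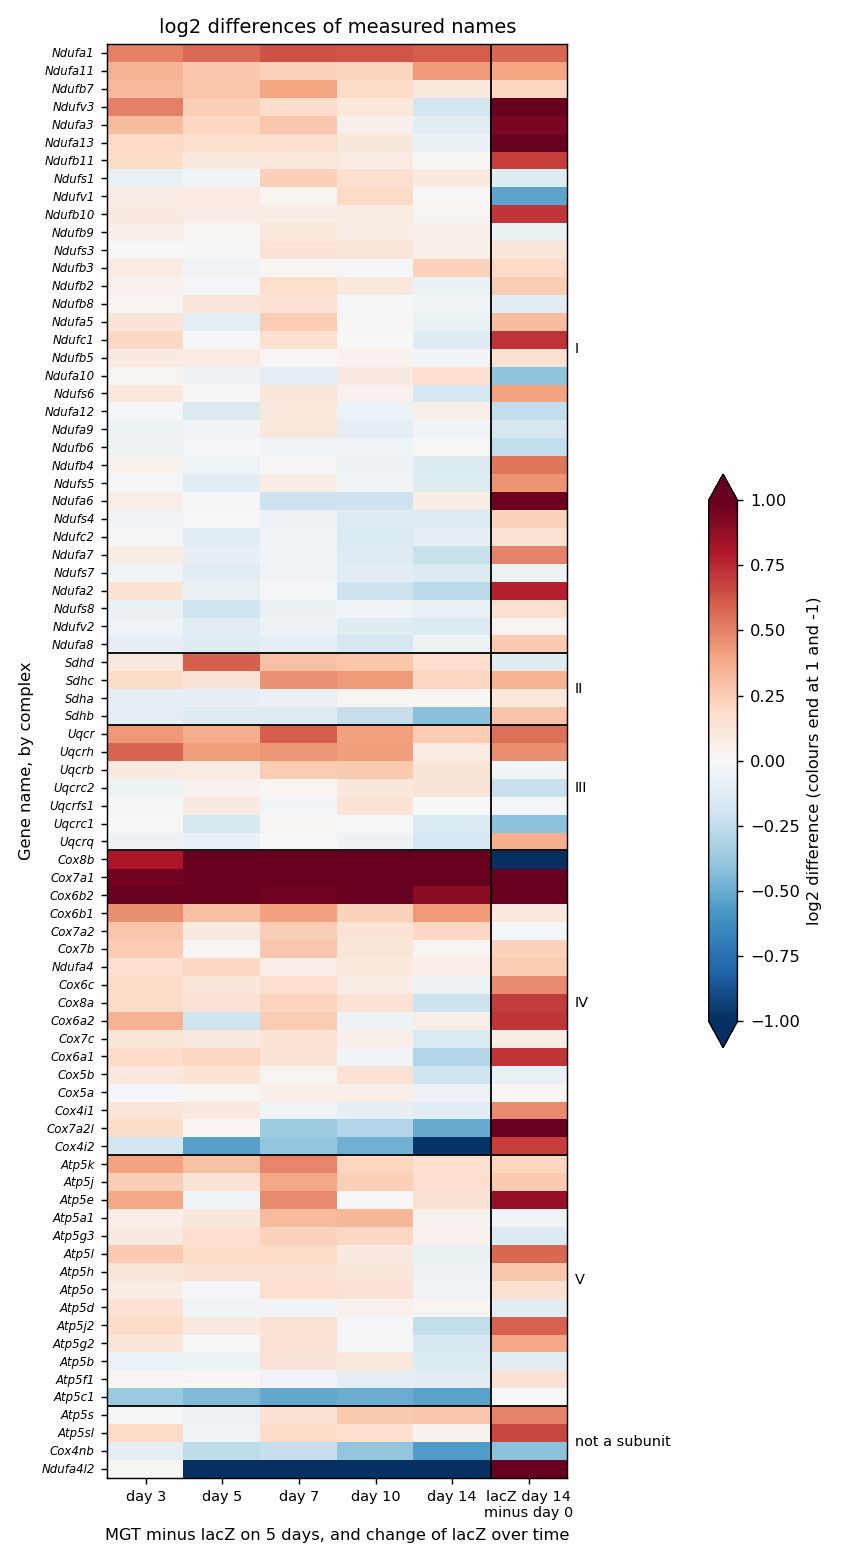
Log2 difference of all but 1 of the 81 measured names between MGT and lacZ cells on 5 days (the first 5 columns) and between lacZ cells at day 14 and day 0 (last column), by complex and ordered within each by the mean over days. Rows for Cox8b, Cox7a1 and Cox6b2 are dark red in each of the first 5 columns, most other rows are pale, and most rows of the last column are red; colours end at 1 and -1.

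Time in culture was compared without MGT too. In lacZ cells 44 names were called higher and 8 lower at day 14 than at day 0, both on the third slide, against 35.5% and 33.4% of all genes (68.9% in either direction). The median was 0.26 for the names and 0.055 for all genes. Complex I had 19 of 35 higher and 4 lower, with Ndufv3 up by 1.98 and the NADH-binding subunit Ndufv1 down by 0.53, and complex IV 11 of 17 higher and 1 lower, the latter Cox8b. At day 3, which lies on another slide than day 0, 18 were higher and 24 lower, against 57.7% of all genes called (28.8% higher, 28.9% lower). The balance depended on the processing: 25 were higher and 21 lower relative to bright probes, 17 and 11 with normexp, and 18 and 13 with the deposited values. Over all genes 58%, 53.2% and 52% were called there, and the median of the names moved from -0.036 to 0.013, 0.05 and 0.049. Cox6b1 (-0.80) and the complex I subunit Ndufa12 (-0.63) fell most after Cox8b (-1.41), and Cox7a2l and Cox6b2 rose by 1.10 and 1.12. In MGT cells 41 were higher and 11 lower at day 14 than at day 0, again across slides, against 70.5% of all genes called (33% higher, 37.4% lower). Cox7a1 was higher by 4.94, and the core protein Uqcrc1 lower by 0.55. Relative to bright probes 55 were higher and 4 lower, with normexp 57 and 4, and with the deposited values 52 and 5. Over all genes 70.3%, 66.7% and 66.2% were called there. The comparisons with day 0 share the day 0 arrays.

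Genes that serve the chain were counted on the same scale, on which 23.3% of all genes were called higher and 40.6% lower averaged over days. Of the 13 mitochondrially encoded subunits, 12 were matched by name, and 5 were called higher and 1 lower in MGT cells averaged over days. ND5 (0.39), ND4L (0.33) and ND2 (0.32) rose, and ND6, the subunit encoded on the other strand, fell by 0.59 (SE 0.1); ND5 lacked a value on the second day 10 lacZ array, whose spot was marked as an outlier. At day 14 these genes had 1 higher and 5 lower (18.3% and 29.3% of all genes were), with a median of -0.20. Their summed level, in multiples of the 75th percentile, was 1340 and 2160 on the day 14 lacZ arrays and 1140 and 1080 on the MGT arrays, so the second lacZ array stood apart. Its 75th percentile signal was 729, the lowest of the 22 arrays. Without it 1 was higher and 3 were lower. The direction at day 14 turned with normexp (7 higher and 1 lower, median 0.26) and with the deposited values (5 and 2, median 0.21), and relative to bright probes it did not (2 and 4, median -0.086). Of 41 assembly factors measured, 8 rose and 16 fell (19.5% and 39%, close to the shares of all genes; median -0.055). Relative to bright probes 11 were higher and 10 lower (median 0.026), when 30.5% and 30.8% of all genes were. With normexp the assembly factors had 8 higher and 15 lower, and with the deposited values 8 and 16. Among those called in the first fit were Fam36a (0.64) and the copper protein Cox19 (0.47) upward and the complex III chaperone Bcs1l (-0.42), the copper chaperone Sco2 (-0.39) and Cox18 (-0.33) downward. Of 17 genes for electron carriers and nucleotide exchange 2 rose, Etfdh (0.30) and Etfa (0.17), which hand electrons from fatty acid oxidation to ubiquinone, and 7 fell (41.2%, close to the share of all genes), among them the ubiquinone synthesis genes Coq4 (-0.33) and Pdss1 (-0.32). Relative to bright probes 4 were higher and 4 lower, and with normexp and with the deposited values 5 and 6. Of 16 citric acid cycle genes 6 rose and 5 fell (median -0.037). The median was 0.044 relative to bright probes, 0.076 with normexp and 0.058 with the deposited values. Idh3a, a subunit of isocitrate dehydrogenase, rose by 0.69 (SE 0.033, limma adjusted p = 5.75e-10) and Suclg1 by 0.34, while Suclg2 fell by 0.33.

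Of 18 regulators of mitochondrial gene expression 3 rose and 11 fell (16.7% and 61.1%, against 23.3% and 40.6% of all genes). Relative to bright probes 4 were higher and 5 lower, against 30.5% and 30.8% of all genes. With normexp 3 were higher and 9 lower (25.4% and 33% of all genes), and with the deposited values 4 and 9 (24.4% and 33.7%). The 3 risers of the first fit were the coactivators Ppargc1a and Ppargc1b and the nuclear receptor Esrrg, a known partner of these coactivators. Esrrg was well above background on 10 of 10 MGT arrays and 2 of 10 lacZ arrays. At day 14 Esrrg was at least 4.29-fold higher in MGT cells and at day 10 at least 4.75-fold. Each is a bound, since the lacZ arrays of these days were taken at the lowest signal well above background where the probe was dimmer. The bounds themselves were not tested. Ppargc1b, well above background on 9 of 10 lacZ and 10 of 10 MGT arrays, rose by 2.17 on average (SE 0.12). Ppargc1a, well above background on 5 of 10 lacZ arrays, was lower in MGT cells at day 3 (levels of -4.21 and -3.82 against -2.92 and -2.92 in lacZ). At day 14 it was at least 3.08-fold higher in MGT cells, again a bound that was not tested. The falls included Pprc1 (-0.34) and Lrpprc (-0.28). The probes of Ppara disagreed: the brightest gave -0.28, the mean of its probes gave 0.89, and 0.60 was found with the deposited values.

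Markers of other cells moved with the comparison. Averaged over days, 23.3% of all genes were called higher and 40.6% lower, and the 8 cardiomyocyte markers were all called higher. Of these Actn2 and Ryr2 were well above background on 2 of 10 lacZ arrays each and Pln on 0, so their differences are bounds on most days and no median is given. The summed level of the 8, in multiples of the array's 75th percentile, was 16.9 to 19 at day 0, 13.2 to 59.4 on the lacZ arrays and 341 to 875 on the MGT arrays. Of the 10 fibroblast markers 8 fell and 2 rose (Thy1 and Vim), and all were well above background on every array. Of 6 endothelial markers 5 fell, with summed levels of 7.72 to 14.1 (lacZ) and 5.66 to 9.70 (MGT). Among the 6, Cldn5 was well above background on 7 of 10 lacZ and 2 of 10 MGT arrays and Tie1 on 9 and 6. Of 6 skeletal muscle markers 5 rose. Myog was well above background on 0 of 10 lacZ and 2 of 10 MGT arrays, Myh3 on 0 and 5, and Myod1 on 3 and 5. The 6 macrophage markers were not called averaged over days, with differences from -0.087 to 0.18. Their summed level was 28.1 to 31.4 at day 0, 160 and 217 on the day 14 lacZ arrays and 129 and 140 on the day 14 MGT arrays. Of 4 smooth muscle markers 1 rose and 1 fell. In RNA from whole cultures fewer cells of a type and less RNA per cell cannot be told apart, and the part of these cells in the differences above was not tested.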

How the data were processed

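Spot intensities of 22 arrays were deposited as scanner files; per the file headers, Agilent Feature Extraction 10.7.3.1 had subtracted background and detrended each array, with no step between arrays. Its marks of outlier, saturated and background spots are in the same deposited files. The authors also deposited a table of normalized intensity, 1 value per gene name, whose scale and making are not stated; it served as an alternative.

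From the scanner files, log2 of the processed signal minus the array's 75th percentile was taken over non-control spots without outlier-marked ones. Of 55681 probes, 38787 were kept, those that exceeded background clearly in each array of some group, and per gene name the probe with the highest mean was used (18112 genes). limma 3.58.1 in R 4.3.3 fitted 11 group means (lmFit, eBayes; 11 residual and 1.66 prior degrees of freedom) with Benjamini-Hochberg adjustment over all genes; the fit was tested on simulated data. With 2 arrays a group, their number limits the precision. Replicate numbers did not pair the arrays.

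The members and lists were chosen with earlier results of these data known. Genes named are the muscle and tissue forms and their counterparts, all of complex II, per complex the 3 largest called rises and falls of the averaged comparison with 1 sign on all 5 days, the 3 largest called each way in other comparisons, and the 3 largest each way per list; others named (core, Rieske and beta subunits, Ppara's probes) complete a group. The values of 1 member are not reported here, though it enters all counts. Alternatives were normexp (offset 50) with quantile normalization, the deposited table, other scaling, probe filters and probe summaries, arrays left out, the compared arrays alone, a replicate block and slides. Of these, the average over days 3 to 10, the contrast of days 7 and 10 with days 3 and 5, and the counts of lists and complexes under other scalings were chosen after seeing the data.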

Additional observations from a re-analysis of the deposited data

Results flagged for a closer look

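The difference between MGT and lacZ cells itself differed between day 3 and day 14 for 14 names, 2 higher and 12 lower. This was called in a limma interaction contrast adjusted over all genes, of which 27.5% were called. The 2 rises and the 3 largest falls are given here. The difference grew by 3.387 for Cox8b (adjusted p = 6e-07) and by 1.337 for Cox7a1 (adjusted p = 5.43e-04), and both were called in each of the 17 alternative settings run. It changed by -0.795 for Cox4i2 (adjusted p = 4.86e-04). Within slides, with days 7 and 10 against days 3 and 5 and without day 14, the change was -0.07 (adjusted p = 0.688). It changed by -0.689 for Cox7a2l (adjusted p = 0.00135). That call was lost with normexp and quantile normalization (-0.056, adjusted p = 0.754) and in the deposited table (-0.26, adjusted p = 0.0676), and within slides the change was -0.42 (adjusted p = 0.00521). It changed by -1.17 for Ndufa4l2 (adjusted p = 0.0459), which was called in 8 of 17 alternative settings (adjusted p from 0.019 to 0.156). Day 14 MGT was on a slide of its own, so the part of the slide in these values cannot be told apart from that of the vector. The contrasts within slides hold no day 14 array and describe the earlier days only.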

How the results depend on the processing

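Counts are of the 81 names called in limma. With normexp and quantile normalization the averaged comparison gave 62 in place of 39, day 7 gave 44 in place of 23, day 10 gave 36 in place of 19 and day 14 gave 55 in place of 18. Over all genes 58.5%, 31.3%, 32.7% and 45.6% were called there, in place of 63.9%, 37.2%, 39.3% and 47.5%. The deposited table gave 41 at day 7, 29 at day 10 and 53 at day 14, when 31%, 32.7% and 43% of all genes were called. Scaling to bright probes gave 64 averaged over days, 32 at day 3 (18 in the main setting), 42 at day 7, 34 at day 10 and 33 at day 14. Over all genes this scaling gave 61.3%, 29.3% (30.4% in the main setting), 36%, 36.6% and 46.4%. With the compared arrays alone there were 5 at day 10, 5 at day 14, 9 for day 14 minus day 3 (14) and 27 for lacZ day 14 minus day 0 (52). The share of all genes called fell there too, from 39.3% to 18.2%, 47.5% to 15%, 27.5% to 18.2% and 68.9% to 46.4%. The days of slide 1 gave 23 (45.8% of all genes), and the change over time within slides 6 (15.2%). With 1 array left out its group rests on a single array, and the share of all genes called moved as well. Leaving out 1 array gave 36 to 44 averaged over days, 12 to 13 at day 3, 10 to 14 at day 5 (17; 11 without either lacZ array of the day, 10 without the second MGT array), 15 to 21 at day 7 (15 without the second MGT array), 14 to 18 at day 10 and 13 to 25 at day 14. It gave 8 to 23 for day 14 minus day 3 (23 without day 14 lacZ replicate 1), 27 to 32 for lacZ day 3 minus day 0 (42; 27 without day 3 lacZ replicate 1), 46 to 51 for lacZ and 45 to 51 for MGT day 14 minus day 0.

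Signs turned for small values. Cox4i1 was at 0.234 with normexp, 0.236 in the deposited table, 0.079 scaled to bright probes, 0.106 on slide 1, 0.025 over days 3 to 10 and -0.019 to 0.016 with 1 array left out. Sdha was at 0.089, 0.066 and 0.042 and Ndufc2 at 0.098, 0.067 and 0.005 under the first 3 of these settings. Mdh2 was at 0.064 with normexp and 0.047 in the deposited table, Pdha1 at 0.022 on slide 1, and Ppara at 0.603 in the deposited table and 0.892 as a mean of probes. Cox6a1 ranged from -0.006 to 0.094 with 1 array left out. Cox6a2 relative to Cox6a1 was at -0.26 with normexp, -0.262 in the deposited table and -0.027 to 0.102 with 1 array left out. The cause was not tested. Of the values for single names, 2303 kept direction and call, 84 lost the call, 17 gained it and 26 turned sign.

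Same-numbered arrays did not deviate together (correlations of -0.028 to 0.091). A replicate block gave 38 averaged over days, 18, 15, 23, 19 and 17 on the 5 days, 12 for day 14 minus day 3, and 39, 52 and 52 for the comparisons with day 0. The slide as a random block was not run, since every group lay on 1 slide. Dim probes have only bounds, and 48.4% of spots were well above background on day 14 lacZ replicate 2.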
